A study of Mus musculus with 24 samples.

Results

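Translation initiation and elongation factors were examined in RNA of the mouse dentate gyrus, the part of the hippocampus where neurons are added throughout life. The members are all genes of the deposited expression table whose symbols start with Eif1 to Eif6 or with Eef1 or Eef2, which gave 67 of 23306 genes. Of these, 63 fall into role groups of the translation machinery. The other 4, Eif2c1 to Eif2c4, are older symbols of the Argonaute genes, which encode the proteins that carry microRNAs, and they are kept apart. Eif2s3y, a gene of the Y chromosome, was listed at 0 in all 24 libraries, all from female mice.

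The libraries come from female C57BL6 mice with the genotype Nes-CreERT2::RiboTag, in which tamoxifen lets a Nestin-driven Cre add an HA tag to the ribosomal protein Rpl22. Tamoxifen was given at 9 to 11 weeks of age on 5 days, at 160 mg per kg, and all groups share the transgenes and the drug. The tag marks cells that expressed Nestin at that time, stem cells above all, and their descendants, so RNA bound to tagged ribosomes can be precipitated (IP), and it was set against tissue RNA without precipitation (input). The IP is labelled as immature neurons of the dentate gyrus. Mice had a running wheel (running) or a wheel that was glued and could not turn (sedentary), and were taken at a treatment time of 11, 18 or 27 days. Each combination of fraction, activity and day has 2 libraries, named by letter (a, b for day 11; c, d for day 18; e, f for day 27). How many mice a library holds, and whether the 2 libraries of a group come from separate mice, is not given by the labels, so p-values measure only the spread between these libraries, which may be technical.

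Initiation factors bring the initiator tRNA and the small ribosomal subunit to the capped end of an mRNA, let it scan to the start codon and then let the large subunit join. Elongation factors bring each further tRNA and move the ribosome along. Cells adjust protein synthesis at a few points of this path: kinases that phosphorylate eIF2, proteins that hold the cap-binding factor eIF4E, and the kinase that silences eEF2. In neurons, synthesis near synapses is controlled at these points. As RNAs, many of these factors belong to the messages whose translation follows growth signals through mTOR.

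Values are TPM, each gene's share of the transcripts of a library after correction for transcript length, and the read depth is unknown. The IP was checked against marker genes: all 9 markers of newborn and immature neurons were higher in the IP, among them Dcx with 119 ± 41.6 TPM in IP and 14.7 ± 1.35 TPM in input libraries, and all 8 neural stem cell markers were higher too. All 6 microglial and all 6 interneuron markers were lower in the IP. Glial markers were mixed: 5 oligodendrocyte markers were lower, and of 6 astrocyte markers 2 were higher and 2 lower, with sums of 2891 ± 566 and 2242 ± 264 TPM. The oligodendrocyte sum nevertheless ran from 877.8 to 1345.5 TPM across IP libraries, above every input library (447.1 to 725.5 TPM). For mature granule neuron markers the sum went the other way. It spanned 1450.8 to 2045.7 TPM for IP libraries, beside 2043.2 to 3244.1 TPM for input libraries. These sums were not tested. The IP thus held raised immature neuron markers, as its label says, beside raised stem cell markers and some raised astrocyte ones. Its oligodendrocyte marker sum was raised too, although 5 of those markers were lower, so the sum does not stand for most of them. The 2 IP libraries with the letter a at day 11 stand apart from the other 10 on the first principal component of the IP libraries (-49.7 and -42.1, against -6.91 to 39.7). In 1 of them, the running library, 17.4% of the TPM belonged to Rpph1, the RNA of ribonuclease P. At day 18 the input libraries carried 12.3 ± 3.43 TPM per olfactory receptor gene, a class not known for this tissue, against 1.995 ± 1.61 TPM at day 11 and 4.24 ± 1.27 TPM at day 27. Without the day 18 libraries, the comparison of IP with input is given for single members, for eIF2B and for the F test by day. The counts of all members higher and lower in the IP are not given for that setting. The comparison of days in the IP is also given without the letter a libraries.

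Together the 67 genes took 0.955 ± 0.0878% of all TPM in the IP and 0.973 ± 0.107% in the input (means with SD over 12 libraries each). Eef1a1, which encodes the main carrier of aminoacyl-tRNA to the ribosome, was the most abundant member and made up 19.8 ± 1.44% of the members' sum in the IP and 21.1 ± 2.98% in the input. Of 65 members with a mean of at least 1 TPM over the 24 libraries, 28 were higher and 14 lower in the IP than in the input (limma on log2(TPM + 1), Benjamini-Hochberg over all genes, adjusted p under 0.05). Over all 19507 genes tested, 41.4% were called higher and 28.5% lower, against 43.1% and 21.5% of the members. The members' median difference, IP minus input, was 0.15 on the log2(TPM + 1) scale, beside 0.12 over all genes. These shares are near those of all genes, and the differences lie between the members. The median gene stood at 8.20 ± 0.881 TPM in IP and 6.50 ± 1.62 TPM in input libraries, and 3 of 4 nuclear RNAs were higher in the IP; their part in the differences was not tested. The scale matters here: median-of-ratios scaling moved the median of all genes to -0.12 and gave 17 members higher and 32 lower (26.2% and 49.2%, beside 27.7% and 41.5% of all genes). Fewer cells of a type and less RNA per cell cannot be told apart in these bulk libraries.

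**Figure D1:**
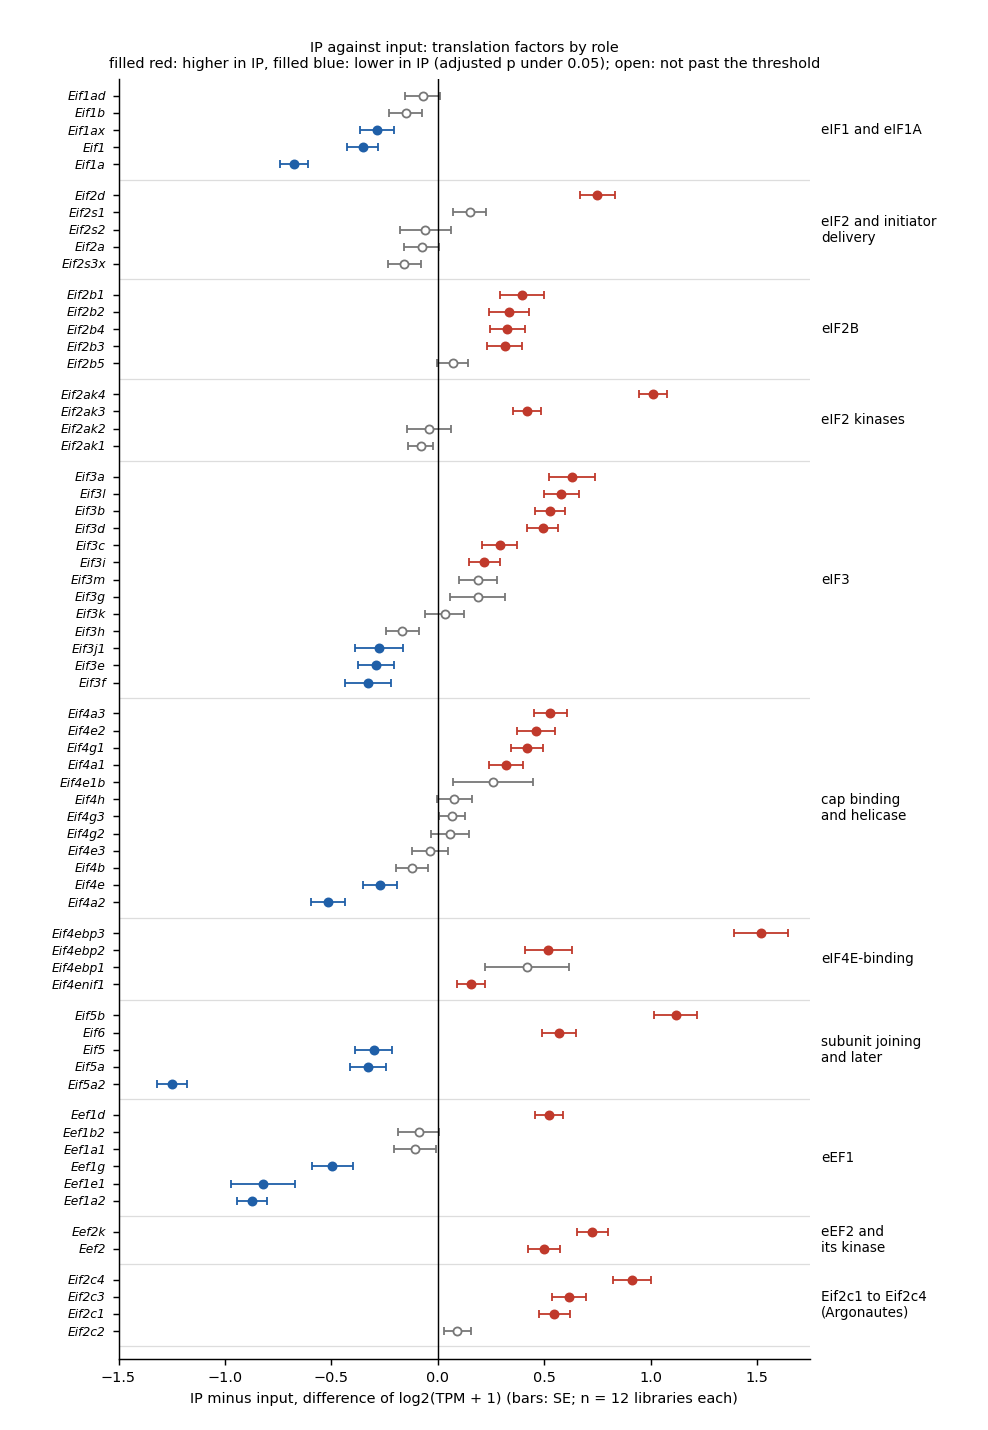
Differences of log2(TPM + 1), IP minus input, for the 65 members tested, with SE as bars (12 libraries each) and grouped by role. Members of the same complex lie on both sides of 0; Eif4ebp3 at 1.52 and Eif5a2 at -1.25 mark the ends.

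The elongation factors split by isoform. Eef1a2, the form of eEF1A that mature neurons and muscle use, was lower in the IP, while Eef1a1 did not pass the test. Eef1a2 had 349, 445 and 788 TPM in the IP (lowest, median and highest of 12 libraries), against 691, 882 and 1071 TPM in the input. Only the highest IP library, the running library e of day 27, reaches into the range of the input. The difference was -0.87 with an SE of 0.07, adjusted p = 2.13e-09. Eef1a2 lies at chr2:181147653-181157014 on the minus strand and Eef1a1 at chr9:78478449-78489151, also on the minus strand (GRCm38, GENCODE M21). Eef1a1 averaged 1892 ± 239 TPM in the IP against 2047 ± 333 TPM in the input, a difference of -0.11 with an SE of 0.10, adjusted p = 0.34. With median-of-ratios scaling Eef1a1 was lower in the IP too (adjusted p = 0.00101). There were 4.10 ± 1.13 Eef1a1 transcripts per Eef1a2 transcript in the IP and 2.38 ± 0.475 in the input.

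Eef1d, Eef1g and Eef1b2 encode subunits of the exchange factor that reloads eEF1A with GTP, and they did not move together. Eef1d was higher in the IP, with 66.8 ± 8.91 TPM in IP and 46.5 ± 8.14 TPM in input libraries (difference 0.52); Naprt overlaps it on the same strand, so its reads could not be told apart with certainty. Eef1g was lower, with 201 ± 26.4 TPM in the IP against 287 ± 61.9 TPM in the input (-0.49). Eef1b2 was at -0.09 and did not pass the test. Eef1e1, whose product belongs to the complex of tRNA synthetases, was lower in the IP, with 9.43, 19.7 and 23.98 TPM in the IP (lowest, median, highest) and 18.1, 31.4 and 43.5 TPM in the input (-0.82 with an SE of 0.15, adjusted p = 8.47e-05). Eef2, the factor that moves the ribosome by a codon, and Eef2k, the kinase that silences it, were both higher in the IP. Eef2 had 555, 718 and 1005 TPM in the IP against 469.6, 499.9 and 663 TPM in the input (0.50 with an SE of 0.07, adjusted p = 6.65e-06). Eef2k had 21.3, 32.7 and 38.3 TPM in the IP against 15.3, 18.8 and 22.3 TPM in the input (0.73 with an SE of 0.07, adjusted p = 3.04e-08). Only the lowest IP library of Eef2k, the running library a of day 11, lies inside the range of the input.

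**Figure D2:**
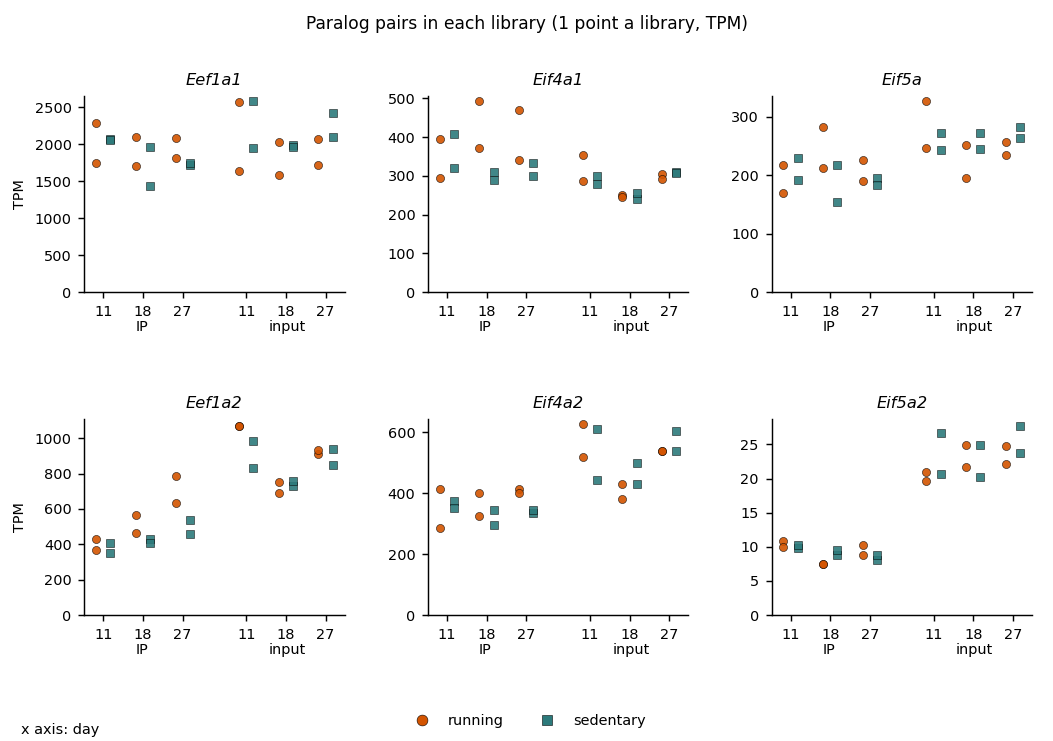
TPM of 3 paralog pairs in each library (1 point a library) by fraction and day, running left of sedentary. Eef1a2, Eif4a2 and Eif5a2, in the lower row, sit lower in the IP; for Eif5a2 no IP library reaches the lowest input library at 19.7 TPM.

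Among the factors that select the start codon, eIF1 and eIF1A, 3 of 5 members were lower in the IP and none was higher; with median-of-ratios scaling all 5 were lower. Eif1a had 10.4, 13.5 and 16.9 TPM in the IP, below all input libraries, which held 18.3, 22.6 and 26.4 TPM (-0.68 with an SE of 0.07, adjusted p = 2.05e-08). Eif1, at 318 ± 31.4 TPM in the IP against 409 ± 59.1 TPM in the input, and Eif1ax, at 72.6 ± 11.9 and 89.0 ± 16.5 TPM, differed by -0.35 and -0.29. Eif1b and Eif1ad did not pass the test (-0.15 and -0.07). Eif1 and Eif1b, like Eif1a and Eif1ax, are close copies, and how RSEM shared reads between copies is not known, so their split is uncertain.

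The 3 subunits of eIF2, which carries the initiator tRNA, did not pass the test: Eif2s1 was at 0.15, Eif2s2 at -0.06 and Eif2s3x at -0.16. However, Eif2s3x was called lower in the IP with median-of-ratios scaling, without the day 18 libraries and on leaving out some single libraries. Eif2d, whose product can bring in initiator tRNA without eIF2 and helps release used ribosomes, was higher in the IP. It had 33.2, 45.2 and 50.1 TPM in the IP, all above the 19.5, 25.6 and 31.7 TPM of the input (0.75 with an SE of 0.08, adjusted p = 1.47e-07). Of eIF2B, the exchange factor that recharges eIF2, 4 of 5 subunits were higher in the IP by 0.31 to 0.40, but with median-of-ratios scaling none was, and Eif2b5 was lower. Without the day 18 libraries 2 of the 5 were higher. Eif2b1 averaged 19.5 ± 3.23 TPM in the IP against 14.6 ± 2.49 TPM in the input (0.40 with an SE of 0.10, adjusted p = 0.00209).

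The 4 kinases that phosphorylate eIF2 and so lower initiation each answer to another stress, and they differed. Eif2ak4 encodes GCN2, which senses uncharged tRNA and so a lack of amino acids. It had 27.1, 33.6 and 39.6 TPM in the IP, against 11.9, 16.2 and 17.9 TPM in the input, with no overlap between the 12 and 12 libraries (1.01 with an SE of 0.07, adjusted p = 7.48e-11). The gene lies at chr2:118388618-118475234 on the plus strand (GRCm38). Eif2ak3 encodes PERK, the kinase of the stressed endoplasmic reticulum, and had 26.1 ± 3.88 TPM in the IP against 19.2 ± 1.91 TPM in the input (0.42 with an SE of 0.07, adjusted p = 1.25e-05; with median-of-ratios scaling adjusted p = 0.0681). Eif2ak1, the haem-regulated kinase, stood at 58.7 ± 6.13 TPM in the IP against 62.0 ± 5.54 TPM in the input and did not pass the test (-0.08 with an SE of 0.06, adjusted p = 0.236), though it was lower in the IP with median-of-ratios scaling. Eif2ak2, the kinase PKR that double-stranded RNA activates, had 68.4 to 122 TPM in the IP and spread far wider in the input, 33.3 to 233 TPM. Its difference over all days, -0.04, changed sign with the choice of libraries, and its values by day follow with the comparison of days. With median-of-ratios scaling it was lower in the IP (-0.32, adjusted p = 0.00973).

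eIF3, the many-subunit scaffold that joins the small ribosomal subunit to the mRNA, was split: 6 of 13 subunits were higher in the IP, 3 lower and 4 did not pass the test, and with median-of-ratios scaling 4 were higher and 5 lower. The higher ones were Eif3a, Eif3l, Eif3b, Eif3d, Eif3c and Eif3i. Eif3a, the largest subunit, had 355, 451 and 599.6 TPM in the IP against 164, 294 and 596 TPM in the input (0.63 with an SE of 0.11, adjusted p = 3.67e-05). Without the day 18 libraries its difference was 0.26 (adjusted p = 0.125), so this call rested on day 18. Eif3l had 86.5 ± 12.2 TPM in the IP against 57.6 ± 9.90 TPM in the input (0.58 with an SE of 0.08, adjusted p = 4.61e-06), and Eif3b had 109.6 ± 16.1 TPM in the IP against 76.6 ± 15.8 TPM in the input (0.53 with an SE of 0.07, adjusted p = 1.64e-06). The calls on both held in all alternatives tried. Eif3f, Eif3e and Eif3j1 were lower in the IP, at -0.33, -0.29 and -0.28. The call on Eif3f ended without the day 18 libraries (adjusted p = 0.103). That on Eif3j1 ended in 11 of 32 alternatives: without both letter a libraries, and in the others on leaving out a single library. Eif3e had 131 ± 17.7 TPM in the IP against 163 ± 37.6 TPM in the input. Eif3j2, a close copy of Eif3j1, was above 0 in 2 IP libraries of day 18, at 12.2 TPM (running) and 10.7 TPM (sedentary), and listed at 0 in the other 22 libraries.

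Of 12 members that bind the cap or unwind the mRNA behind it, 4 were higher and 2 lower in the IP, and 6 did not pass the test; with median-of-ratios scaling 1 was higher and 7 lower. Eif4a1 and Eif4a2 encode near-equal forms of the helicase eIF4A and went opposite ways. Eif4a1 had 289.8, 337 and 493 TPM in the IP against 241, 289.7 and 354 TPM in the input (0.32 with an SE of 0.08, adjusted p = 0.00131). Eif4a2 had 287, 348 and 414 TPM in the IP against 383, 528 and 626 TPM in the input (-0.52 with an SE of 0.08, adjusted p = 1.15e-05). The ratio of Eif4a1 to Eif4a2 was 0.853 to 1.23 in the IP and 0.458 to 0.682 in the input, with no overlap, and as a ratio within a library it does not depend on the scaling. The call on Eif4a1 itself does: its difference was 0.04 with median-of-ratios scaling, and without the day 18 libraries it was 0.22 and no longer called (adjusted p = 0.0841). The other members called higher were Eif4a3, a helicase of the exon junction complex at 82.6 ± 10.3 TPM in the IP against 57.0 ± 7.70 TPM in the input (0.53 with an SE of 0.08, adjusted p = 4.77e-06), and Eif4e2, a cap-binding protein that represses rather than starts translation. Eif4e2 had 103 ± 18.0 TPM in the IP against 76.6 ± 28.05 TPM in the input (0.46 with an SE of 0.09, adjusted p = 0.000125; with median-of-ratios scaling adjusted p = 0.0791). Eif4e, the cap-binding factor itself, was lower in the IP, with 77.6 ± 8.94 TPM against 94.8 ± 16.6 TPM in the input (-0.27 with an SE of 0.08, adjusted p = 0.00515). Of the scaffolds that link cap and ribosome, Eif4g1 was higher, with 198 ± 30.9 TPM in the IP against 149 ± 29.3 TPM in the input (0.42 with an SE of 0.07, adjusted p = 5.45e-05), a call that ended with median-of-ratios scaling and without the day 18 libraries. Eif4g2 was at 0.06 and Eif4g3 at 0.07, neither past the test, and both were lower in the IP with median-of-ratios scaling.

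Proteins that bind eIF4E and keep it from the scaffold were higher in the IP in 3 of 4 cases, and in 2 of 4 with median-of-ratios scaling. Eif4ebp3 showed the highest positive difference of the members, also with median-of-ratios scaling (1.26). It had 14.7, 20.6 and 31.0 TPM in the IP, above all input libraries, which held 3.36, 6.86 and 11.6 TPM (1.52 with an SE of 0.13, adjusted p = 2.97e-09). The annotation places another gene on the same strand over Eif4ebp3, so reads of the 2 could not be told apart with certainty. Eif4ebp2, the main form in brain, had 18.7, 28.4 and 33.2 TPM in the IP against 12.7, 19.2 and 27.2 TPM in the input (0.52 with an SE of 0.11, adjusted p = 0.000376). Eif4ebp1, the form best known as an mTOR target, was low, at 5.79 ± 1.45 TPM in the IP against 4.30 ± 1.83 TPM in the input. It did not pass the test (0.42 with an SE of 0.20, adjusted p = 0.067). It did pass with a replicate block, without the day 18 libraries (0.49, adjusted p = 0.0149) and on leaving out any 1 of 5 libraries. Eif4enif1, which escorts eIF4E into the nucleus and into granules, was 0.16 higher, but this call is weak. The difference was -0.12 with median-of-ratios scaling. The call also ended with a replicate block, without the day 18 libraries (0.05) and on leaving out any 1 of 13 libraries.

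The late factors lay on both sides of 0 and held the lowest difference of the members. Eif5b, the GTPase that lets the large subunit join, had 111, 134 and 152 TPM in the IP against 34.8, 63.3 and 126 TPM in the input (1.12 with an SE of 0.10, adjusted p = 8.74e-09). Among the input libraries 1, the running library b of day 11, lies inside the IP range at 126 TPM. Eif6, which keeps free large subunits from joining early, was higher too, with 46.6 ± 9.97 TPM in the IP against 30.8 ± 4.02 TPM in the input (0.57 with an SE of 0.08, adjusted p = 2.66e-06). Eif5a and Eif5a2 encode the only proteins known to carry hypusine, a modified lysine, and ease the ribosome over difficult stretches. Eif5a2, the minor form, had 7.42, 9.20 and 10.8 TPM in the IP, below every input library at 19.7, 23.0 and 27.7 TPM (-1.25 with an SE of 0.07, adjusted p = 1.45e-11). It lies at chr3:28781276-28798846 on the plus strand, and Eif5b at chr1:37998010-38055579 on the plus strand (GRCm38). Eif5a was lower as well, with 206 ± 33.4 TPM in the IP against 257 ± 31.3 TPM in the input (-0.33 with an SE of 0.08, adjusted p = 0.00186), so the ratio of Eif5a to Eif5a2 was 23.0 ± 6.14 in the IP and 11.2 ± 1.87 in the input. Eif5, which triggers GTP use by eIF2 at the start codon, differed by -0.30. Of the Argonaute genes, 3 of 4 were higher in the IP: Eif2c4 by 0.91, Eif2c3 by 0.62 and Eif2c1 by 0.55, while Eif2c2 (0.09) did not pass the test. Eif5b is overlapped on the opposite strand by Rev1, as are Eif2d by Rassf5, Eif4a2 by Rfc4, Eef1b2 by Ndufs1 and Eif2ak2 by Gm26637, and whether the counting used the strand is not known, so these reads could not be told apart with certainty. In all, 3 members (Eif2ak4, Eif2d and Eif4ebp3) had every IP library above every input library, 4.62% of the members beside 10.1% of all genes, and 2 (Eif1a and Eif5a2) had every IP library below, 3.08% beside 2.08%.

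A group of 9 members was taken whose mRNAs carry the terminal oligopyrimidine tract that ties them to mTOR (Eef1a1, Eef1b2, Eef1d, Eef1g, Eef2, Eif3e, Eif3f, Eif3h and Eif4b). Of these 9, 2 were higher and 3 lower in the IP, with a median of -0.12 beside 0.12 over all genes; with median-of-ratios scaling 2 were higher and 7 lower. A set of 52 partner genes came from outside the symbol rule (mTOR complex and its effectors, release and recycling factors, regulators of eIF2 signalling, poly(A)-binding and mitochondrial factors). Of these, 32 were higher and 10 lower, beside 41.4% and 28.5% of all genes, with a median of 0.28 beside 0.12. With median-of-ratios scaling 18 were higher and 16 lower, and the shares of all genes with that scaling are given above. Gcn1l1, the activator through which GCN2 senses stalled ribosomes, had 52.2 ± 8.11 TPM in the IP against 28.3 ± 2.45 TPM in the input (0.85 with an SE of 0.06, adjusted p = 2.79e-10). It moved the same way as Eif2ak4, the gene of GCN2. Impact, which blocks GCN1 from activating GCN2, was lower, with 73.2 ± 7.14 TPM in the IP against 111 ± 19.6 TPM in the input (-0.58). Gfm2 and Mtif2, factors of mitochondrial translation, were higher by 1.09 and 0.81. Cyfip2, a partner of the translation repressor FMRP, and Rheb, the GTPase that switches mTOR on, were lower, at -0.78 and -0.72. Mtor itself had 57.4 ± 9.59 TPM in the IP against 45.9 ± 4.84 TPM in the input (0.31). As a description with no test, Spearman's rho between the length of a member's longest coding transcript and its difference was 0.183 over 65 members: above the median length of 2726 bases 18 of 32 were higher and 6 lower, and at or under it 10 of 33 were higher and 8 lower.

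The difference between IP and input was not the same on each day. At day 11, 15 members were higher and 8 lower in the IP (29.2% and 12.1% of all genes); at day 18, 31 and 8 (33.0% and 31.0%); at day 27, 20 and 17 (34.6% and 14.3%). With median-of-ratios scaling these counts were 6 and 24, 23 and 14, and 9 and 29. The percentages of all genes are without that scaling, so the scaled counts cannot be read against them. The F test of fraction by day passed for 22 of 65 members, 33.8% beside 37.4% of all genes. Without the day 18 libraries it passed for 0 members, and the share of all genes is not given for that setting. Among the 22 called with all libraries were 7 of 13 eIF3 subunits and 3 of 5 eIF2B subunits. Eif2ak2 led by p: its difference, IP minus input, was 0.83 at day 11, -1.07 at day 18 and 0.11 at day 27 (F test, adjusted p = 0.000653). Eif3a ran the other way, at 0.31, 1.37 and 0.22, and Eif5b was at 0.78, 1.83 and 0.75. Eef1a2 was lower in the IP on all 3 days, at -1.34, -0.66 and -0.61.

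Within the input, day 18 stood apart. Over the 3 days 25 of 65 members changed, 38.5% beside 45.1% of all genes (F test), and without the sedentary input library c of day 18 the count was 14. Against day 11, 4 members were higher at day 18 and 24 lower, 6.15% and 36.9% beside 37.8% and 11.4% of all genes, so the members' counts leaned the other way from those of all genes. Their median difference was -0.27, beside 0.23 over all genes. With median-of-ratios scaling 3 members were higher and 39 lower. The shares of all genes given here are without that scaling, so the scaled counts cannot be read against them. From day 18 to day 27, 21 were higher and 3 lower, beside 10.4% and 26.7% of all genes. No member passed the test between day 27 and day 11 in the input (0 of 65 by limma, with 2 at an unadjusted p under 0.05), and neither did any other gene (0% of 20462). Of eIF3, 9 of 13 subunits were lower at day 18 and their sum, with the subunits not called included, was 2125 ± 244 TPM at day 11, 1288 ± 131 TPM on day 18 and 1901 ± 127 TPM at day 27 (n = 4 libraries each).

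Eif3a had 289, 596, 353 and 430.1 TPM in the 4 input libraries of day 11 (2 running, then 2 sedentary), 176, 167, 164 and 232 TPM at day 18 and 298, 393, 278 and 369.7 TPM at day 27. All day 18 libraries lie below those of both other days (day 18 minus day 11, -1.13 with an SE of 0.22, adjusted p = 0.00175). Eif3c followed the same course, with 263, 387, 272 and 324 TPM at day 11, 162, 149, 146 and 167 TPM on day 18 and 247, 293, 237 and 280.4 TPM at day 27 (-0.98 with an SE of 0.15, adjusted p = 0.000531). Eif5b had 59.6, 126, 64.6 and 87.3 TPM at day 11, 36.7, 34.8, 36.4 and 47.9 TPM on day 18 and 65.4, 85.2, 62.0 and 76.1 TPM at day 27 (-1.04). The other members named by lowest p were Eif3d (-0.65), Eif3k (-0.65), Eef1b2 (-0.75), Eif3i (-0.59), Eif2b4 (-0.78), Eif3b (-0.60) and Eif2b5 (-0.65). The partners leaned alike, with 20 of 52 lower at day 18 and 4 higher, beside 11.4% and 37.8% of all genes. Denr, a recycling factor, and Pdcd4, an inhibitor of eIF4A, were lower, at -1.11 and -0.83, and Dph5, an enzyme of the diphthamide residue of eEF2, was 1.92 higher. In the same libraries the median gene stood at 5.08 ± 0.539, 8.50 ± 0.855 and 5.92 ± 0.315 TPM over the 3 days, and the level of olfactory receptor genes given above moved with them; their part in these differences was not tested.

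**Figure D3:**
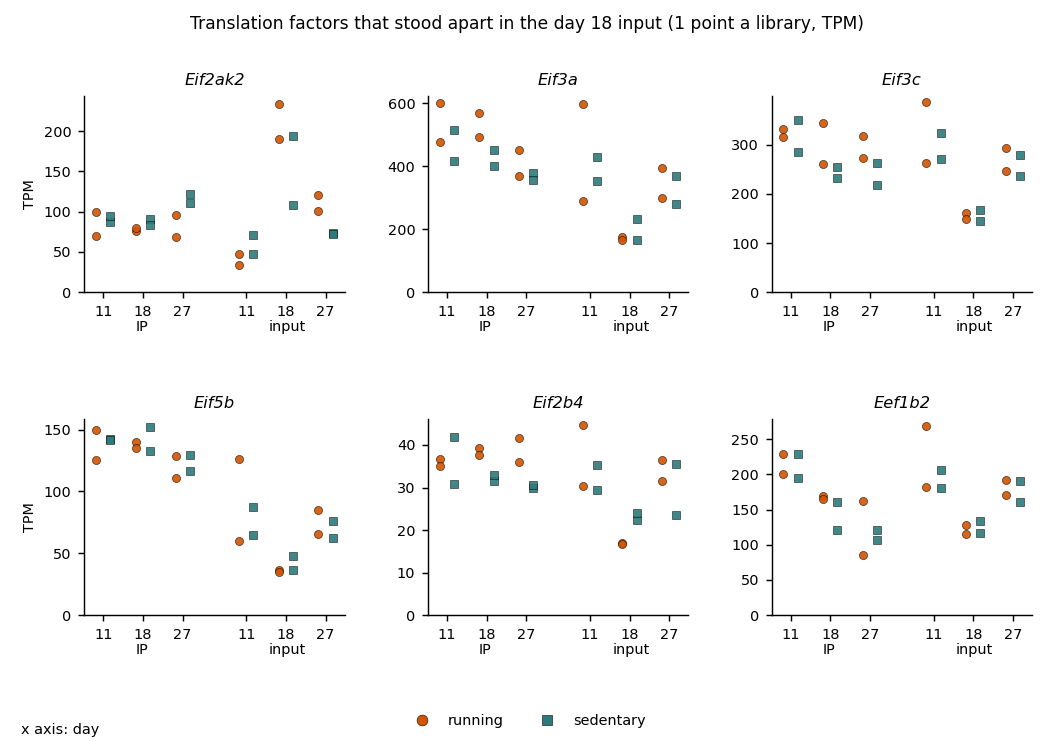
TPM of 6 members in each library (1 point a library) by fraction and day, running left of sedentary. In the input of day 18 Eif2ak2 was at 109 to 233 TPM, above all other input libraries but 1 of the running mice of day 27 at 121 TPM, while Eif3a, Eif3c, Eif5b and Eef1b2 lay below the input of the other days.

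Eif2ak2 went the other way from most members called between day 18 and day 11 in the input. It had 33.3, 47.7, 71.4 and 47.7 TPM at day 11 (2 running, then 2 sedentary), 233, 190.3, 194 and 109 TPM at day 18 and 101, 121, 73.2 and 72.1 TPM at day 27. Every day 18 library was above every day 11 library, and the lowest of day 18 lay within the range of day 27. The difference between day 18 and day 11 was 1.84 with an SE of 0.20, adjusted p = 0.000138. In the IP the same gene held 87.6 ± 13.3, 82.7 ± 6.34 and 99.2 ± 23.1 TPM over the 3 days and did not pass the F test (0.418 adjusted p). The other 3 that were higher at day 18 were Eif4e1b (1.78), a form of eIF4E of egg cells with at most 11.5 TPM, Eif4e2 (0.65) and Eif4ebp3 (0.71, a call that ended with median-of-ratios scaling, with a filter at a mean of 5 TPM and on leaving out any 1 of 6 libraries). PKR is an interferon-induced kinase, so 18 other genes that interferon induces were looked at, a list chosen after the data were seen: 7 of 18 were higher at day 18 than at day 11 in the input and none was lower, which is near the 37.8% of all genes. Their median difference was 0.47, and among them were Oas1a (1.69), Mx1 (1.40) and Isg15 (1.39). Their sum was 72.0 ± 4.96 TPM at day 11, 106 ± 16.3 TPM on day 18 and 77.5 ± 2.39 TPM at day 27.

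The promoters were searched for the core of the interferon response element, which reads GAAA, then 2 bases of any kind, then GAAA, on both strands, in RefSeq windows of 250 bases before to 50 after each start (GRCm38.p6). It is found in 3.99% of 27025 genes with a window, in 4 of the 52 members with one and in 9 of 14 of the interferon-induced genes with one. All 4 members with the match are shown, and they went opposite ways at day 18: Eif2ak2 rose, and Eif2s1, Eif3a and Eif2s3x fell. Each line gives 30 bases in the direction of the gene, 5′ to 3′, with the match in capitals. In Eif3a and Eif2s3x the match is on the opposite strand and reads as the reverse complement.
Eif2ak2: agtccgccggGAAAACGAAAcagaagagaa
Eif2s1: cctggagcaaGAAACAGAAActtacctctc
Eif3a: agaccgcaaaTTTCCCTTTCccactctgtg
Eif2s3x: tgccgagcatTTTCCTTTTCtctccgagca
They lie at chr17:78882535-78882564, chr12:78861850-78861879, chr19:60790885-60790914 and chrX:94212636-94212665. A match says only that these letters are there. Counted from the RefSeq start of the window, it begins 19 bases after the start in Eif2ak2, 4 bases before it in Eif2s3x, and more than 200 bases before it in Eif2s1 and Eif3a. GENCODE M21 gives other starts, by which the matches of Eif2ak2, Eif2s1 and Eif2s3x lie inside the gene and that of Eif3a outside it. Eif2s1 was at -0.55 and Eif2s3x at -0.34 in the input, day 18 minus day 11.

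In the IP, 8 of 66 members changed over the 3 days, 12.1% beside 12.1% of all 17282 genes (F test). Between day 27 and day 11, 5 were higher (Eif4e1b, Eef1a2, Eef2k, Eif2c2 and Eif4e2) and 3 lower (Eef1b2, Eif2s2 and Eif3j1). These are 7.58% and 4.55%, beside 11.4% and 3.88% of all genes. With median-of-ratios scaling 3 members were higher and 7 lower, and these shares of all genes are without that scaling. Eef1a2 had 431, 368, 410.0 and 349 TPM in the 4 IP libraries of day 11 (2 running, then 2 sedentary), 565, 466, 429 and 406 TPM at day 18 and 788, 635, 537 and 459 TPM at day 27. The day 27 libraries all lie above those of day 11 (day 27 minus day 11, 0.61 with an SE of 0.13, adjusted p = 0.00753; 0.46 with an adjusted p of 0.0745 with median-of-ratios scaling). In the input Eef1a2 had no such order, with 989 ± 112, 732 ± 30.8 and 909 ± 40.1 TPM. The ratio of Eef1a1 to Eef1a2 in the IP was 5.31 ± 0.967 at day 11, 3.86 ± 0.477 at day 18 and 3.12 ± 0.502 at day 27, and in the input 2.25 ± 0.668, 2.59 ± 0.352 and 2.29 ± 0.412 (n = 4 libraries each; these ratios were chosen after the data were seen and were not tested).

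Eef1b2 went down over the same days, with 228, 201, 229 and 194 TPM at day 11, 169, 165, 121 and 160.1 TPM on day 18 and 162, 85.3, 121 and 106 TPM at day 27 (-0.88 with an SE of 0.17, adjusted p = 0.00407). No day 27 library reaches the lowest of day 11. Eif2s2, the beta subunit of eIF2, had 97.6, 93.6, 93.2 and 84.0 TPM at day 11, 95.5, 80.3, 63.6 and 79.9 TPM on day 18 and 76.1, 65.7, 62.1 and 60.5 TPM at day 27 (-0.48 with an SE of 0.11, adjusted p = 0.0107). Eef2k had 21.3, 27.6, 27.7 and 30.7 TPM at day 11, 37.6, 32.1, 33.3 and 32.1 TPM on day 18 and 37.2, 36.1, 33.9 and 38.3 TPM at day 27 (0.44 with an SE of 0.12, adjusted p = 0.0257), so that day 11 lies below both later days. Even so, Eef2k did not pass the F test over the 3 days (adjusted p = 0.0522). It was not called by limma between day 18 and day 11 either (adjusted p = 0.112). Eif4e2 (0.40), Eif2c2 (0.41), Eif4e1b (1.26, at 0.180 to 5.73 TPM) and Eif3j1 (-0.44) complete the members that differed. Eif4ebp2 passed the F test and was higher at day 18 than at day 11 (0.48). Of the partners 8 of 52 were higher at day 27 than at day 11 and 2 lower, beside 11.4% and 3.88% of all genes. Among the higher ones were Cyfip2 (0.57), Mtor (0.47) and Dohh (0.53), the enzyme that finishes hypusine. Denr (-0.76) and Paip2b (-0.40), an inhibitor of poly(A)-binding protein, were lower.

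These calls rest on few libraries. Without both day 11 libraries of letter a, an alternative chosen after the data were seen, 0 members passed the F test, 1 was higher and 0 lower at day 27. Without 1 library, the F test passed for 1 member where the library left out was the running a or the sedentary a of day 11 or the sedentary e of day 27, for 3 without the sedentary b of day 11 or the running f of day 27, for 2 without the sedentary f of day 27, and for 5 without either library d of day 18. Without the running b of day 11 it passed for 12, with 9 higher and 5 lower at day 27. Beside the members, 4 of 9 immature neuron markers were lower at day 27 than at day 11 in the IP and none higher, with sums of 2995 ± 569, 2885 ± 1115 and 1879 ± 459 TPM over the 3 days, and 3 of 6 markers of mature granule neurons were higher, with sums of 1505 ± 34.1, 1534 ± 70.3 and 1828 ± 232 TPM. Their part in the members' differences was not tested.

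**Figure D4:**
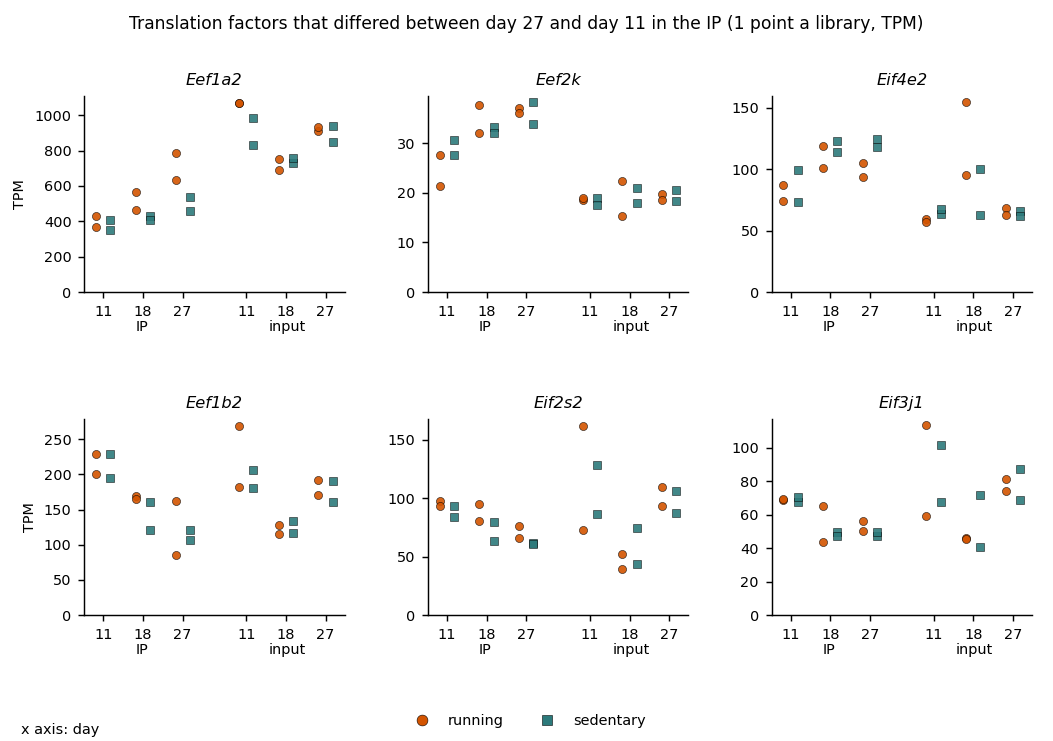
TPM of 6 members that differed between day 27 and day 11 in the IP, for each library (1 point a library) by fraction and day, running left of sedentary. In the IP Eef1a2, Eef2k and Eif4e2 lie higher and Eef1b2, Eif2s2 and Eif3j1 lower at day 27 than at day 11, with an overlap only for Eif4e2, where the lowest library of day 27 at 93.8 TPM lies below the highest of day 11 at 99.5 TPM.

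Running was the treatment of the study, and no member passed the test for it in the IP (0 of 66 by limma), beside 0.00579% of all genes, which is 1 gene of 17282. At an unadjusted p under 0.05 there were 7 members higher and 4 lower, 10.6% and 6.06% beside 3.82% and 10.4% of all genes; with median-of-ratios scaling 15 and 3, or 22.7% and 4.55% beside 8.60% and 7.70% of all genes. The lowest p-values belonged to Eif4ebp3, Eif1ax and Eif2c3, with adjusted p-values of 0.21, 0.21 and 0.223. Eif4ebp3 averaged 18.0 ± 2.73 TPM in running and 24.6 ± 4.14 TPM in sedentary IP libraries (n = 6 each; difference -0.43 ± 0.13, SE). By day it had 15.7 and 20.3 TPM in running and 23.1 and 21.2 TPM in sedentary libraries at day 11, 14.7 and 20.96 against 24.9 and 31.0 TPM at day 18 and 16.2 and 20.0 against 27.6 and 19.8 TPM at day 27. Running was the lower side at days 11 and 18, and at day 27 the groups overlap. Eif1ax had 84.5 and 88.8 TPM in running and 81.7 and 70.8 TPM in sedentary libraries at day 11, 70.9 and 63.8 against 60.7 and 57.5 TPM at day 18 and 90.3 and 78.8 against 65.7 and 57.5 TPM at day 27 (difference 0.27 ± 0.08, SE). On each day both running libraries lay above both sedentary ones, and 1 sedentary library of day 11, at 81.7 TPM, lay above both running libraries of day 18. Eif2c3 was at -0.37, Eif1b at 0.31 and Eif3g at 0.38, none past the adjusted threshold. In an alternative fit with a replicate block, which compares libraries of the same letter, Eif3g was called (adjusted p = 0.0360).

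Eef1a2, which ran higher with the days, was also higher in the running libraries, though not past the test. It had 431 and 368 TPM in running and 410.0 and 349 TPM in sedentary libraries at day 11, 565 and 466 against 429 and 406 TPM at day 18 and 788 and 635 against 537 and 459 TPM at day 27. The groups overlap at day 11 and not at the later days. The difference over the 3 days was 0.29 with an SE of 0.11, adjusted p = 0.259, and by day 0.07, 0.30 and 0.51. Of the partners 0 of 52 passed, with 5 higher and 3 lower at an unadjusted p under 0.05, beside 3.82% and 10.4% of all genes. The lowest p was that of Rps6kb2, an S6 kinase of the mTOR path (-0.43, adjusted p = 0.173). Beside these values, all 9 immature neuron markers had positive differences with running in the IP (median 0.34), all 8 stem cell and all 6 astrocyte markers negative ones (medians -0.31 and -0.35), none past the test. Immature neuron markers summed to 2986 ± 944 TPM in running and 2187 ± 629 TPM in sedentary IP libraries. Their part in the members' differences was not tested.

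**Figure D5:**
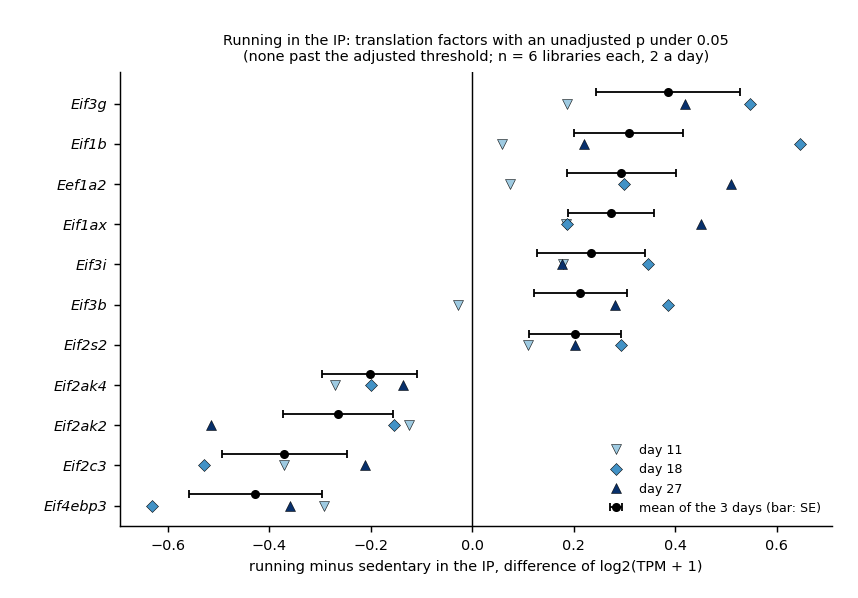
Difference of log2(TPM + 1), running minus sedentary, in the IP for the 11 members with an unadjusted p under 0.05, as the mean of the 3 days with SE (black) and for each day. None passed the adjusted threshold; Eef1a2 has its widest difference at day 27, at 0.51, and Eif1b at day 18, at 0.65.

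In the input no member passed the test for running either (0 of 65 by limma, beside 0% of all genes). Only 1 member had an unadjusted p under 0.05, 1.54% beside 4.19% of all genes: Eif3m, an eIF3 subunit, with 74.9 ± 11.4 TPM in running and 93.8 ± 10.1 TPM in sedentary input libraries (-0.33 with an SE of 0.12, adjusted p = 0.953). Eif1ax, which led in the IP, was at -0.12 in the input, and Eef1a2 at 0.08. The running difference in the IP minus that in the input passed the test for 0 of 65 members, with 4 at an unadjusted p under 0.05, 6.15% beside 5.98% of all genes: Eif1ax, Eif1b and Eif3i above 0 and Eif2ak2 below. For Eif1ax it was 0.40 with an SE of 0.16, adjusted p = 0.803. A p that misses the threshold with 2 libraries a group does not show that running leaves a gene unchanged.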

How the data were processed

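RNA was measured in 24 libraries, 12 of IP and 12 of input, prepared with a stranded total RNA kit per the labels' protocols. The authors deposited TPM values (shares of transcripts, corrected for length) for 23306 genes, made with RSEM on the mouse build mm10 per the submitters' processing notes; the aligner, the versions, the annotation and whether counting used the strand, all not given in the sources used here, could change single values. TPM keeps no depth, so no counting error is given. RSEM estimates how reads are shared between like transcripts, which makes values of close copies uncertain. Of 67 members 22 overlap another coding or long non-coding gene in the annotation.

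Tests used limma 3.58.1 in R 4.3.3 on log2(TPM + 1), over genes with a mean of at least 1 TPM in the libraries of the fit, with a mean-variance trend and robust moderation. All 24 libraries entered the comparison of IP with input, and the IP and the input were each fitted alone for running and for days, over the 6 groups of 2 libraries. Benjamini-Hochberg adjustment runs over every gene tested in that contrast, the threshold is 0.05, and all tests are two-sided. A fold change on this scale is understated for low genes. The scripts were tested on simulated data. Members and gene lists were chosen with earlier results of these data known; the interferon-induced list, the paralog ratios and the removal of both letter a libraries were added after the data were seen. Named between IP and input are, in each role group, up to 3 members called higher and 3 called lower by the size of the difference, and a set of central factors; for running and days, the members called, up to 10 in each direction, or the 3 of lowest p; of the partners, up to 3 in each direction. Others are named to complete a group. Alternatives were other pseudocounts, filters and scaling, a replicate block, and leaving out each library, the day 18 libraries or both letter a libraries. Promoter windows are from RefSeq (GRCm38.p6). The result for 1 marker gene is not reported here.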

Additional observations from a re-analysis of the deposited data

Results flagged for a closer look

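The difference between IP and input depended on the day, by limma's F test of fraction by day, for 22 of 65 members. Named among them were Eif2ak2 (adjusted p = 0.000653), Eif4g3 (0.00395), Eif5b (0.00411), Eif3a (0.00475), Eef1a2 (0.00584), Eif4g1 (0.00709), Eif3b (0.00718), Eef1d (0.00785), Eif2b4 (0.0110), Eif2b2 (0.0156), Eif2ak3 (0.0257) and Eif3e (0.0295). In Eif4g3 the difference, IP minus input, was -0.24 for day 11, 0.47 for day 18 and -0.03 for day 27. Eif4g1 was at 0.03, 0.85 and 0.38, Eif3b at 0.27, 0.97 and 0.34, and Eef1d at 0.33, 0.93 and 0.30. For Eif2b4 the values were 0.06, 0.80 and 0.12, for Eif2b2 -0.08, 0.81 and 0.27, for Eif2ak3 0.33, 0.74 and 0.19, and for Eif3e -0.29, 0.06 and -0.65. In all 8 of these, day 18 has the highest value. Groups of 2 libraries are too small for a test of single outlying libraries, so none was made.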

How the results depend on the processing

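With median-of-ratios scaling 17 members were higher and 32 lower in the IP than in the input (median -0.13), 38 changed over the days in the input, and 3 were higher and 7 lower at day 27 than at day 11 in the IP. The sign then changed for Eif4g2 (-0.22), Eif4g3 (-0.21) and Eif4enif1 (-0.12). The median of all genes moved to -0.12, against 0.12 without that scaling. For the counts over days, shares of all genes are given only without median-of-ratios scaling. Without the day 18 libraries 0 members varied with day in their difference between IP and input, Eif2ak2 was at 0.47 and Eif4g3 at -0.13 (IP minus input), and Eif4e2 at -0.066 with running in the input. Without both letter a IP libraries 0 members changed over the days in the IP, 1 was higher and 0 lower at day 27 than at day 11, and Eif2ak2 was at 0.011 (IP minus input). With a replicate block 1 member, Eif3g, was called with running in the IP (0.38, adjusted p = 0.0360), Eif4ebp1 passed between IP and input (adjusted p = 0.0209) and Eif4enif1 did not (0.0743), and elsewhere the block moved no count by over 1.5 times (28 higher, 14 lower, 17 by day). Deviations of running and sedentary libraries of the same letter correlated at 0.0484 to 0.268, positive in all 6 pairs but over 0.1 in only 2. Those of IP and input correlated at -0.278 to -0.00829. The main tests took the libraries to share only a letter, though running and sedentary libraries of 1 letter may share variation. Days could not be blocked, since each letter belongs to 1 day. Leaving out 1 library gave 27 to 29 higher and 13 to 17 lower in the IP, a median of 0.11 to 0.17, 16 to 26 members by day, 0 with running, 14 to 30 over the days in the input, 1 to 12 in the IP, 1 to 9 higher and 1 to 5 lower at day 27 than at day 11, and an Eif2ak2 difference of -0.11 to 0.026. The cause of these changes was not tested. Other pseudocounts and filters moved no count past 1.5 times. Over the named members, single left-out libraries kept direction and side of the threshold in 1351 values, ended the call in 53, brought one in 9 and reversed 3; the other settings gave 507, 28, 7 and 7. Read depth is unknown.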

Other observations

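Further paralog pairs, 3 in number, had ratios within libraries that do not depend on scaling; these pairs were chosen after the data were seen and the ratios were not tested. The ratio of Eif4g1 to Eif4g3, the main and a second scaffold of the cap complex, was 1.25 ± 0.0895 in IP and 0.975 ± 0.0605 in input libraries (mean ± SD, n = 12 each), with ranges of 1.04 to 1.37 in the IP and 0.890 to 1.11 in the input. The ratio of Eif1ax to Eif1a was 5.44 ± 1.07 in the IP and 4.05 ± 0.862 in the input. Its ranges overlap, at 3.41 to 7.45 in the IP and 2.67 to 5.89 in the input. For Eif1 to Eif1b it was 2.25 ± 0.458 in the IP and 2.55 ± 0.339 in the input. Here the IP mean was the lower side, and the ranges overlap (1.36 to 2.89 in the IP, 1.88 to 3.15 in the input). How RSEM shared reads between these close copies is not known, so these ratios are uncertain.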
